A study of Mus musculus with 14 samples.

Results

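The transcripts of 9 genes of the extracellular insulin-like growth factor (IGF) system were followed in mouse pancreatic β-cells and islets: the stanniocalcins Stc1 and Stc2, the pappalysins Pappa and Pappa2, and the IGF-binding proteins Igfbp2, Igfbp3, Igfbp5, Igfbp6 and Igfbp7. They are the rows of the 3 gene count tables whose Ensembl identifier carries one of these symbols, 9 of 37310 genes. The genes were chosen by symbol after results of these same libraries had been seen, and which measured values (levels or fold changes) they were selected on is not recorded, so the levels, differences and adjusted p-values below describe them and support nothing further. Their identifiers are ENSMUSG00000014813 (Stc1), ENSMUSG00000020303 (Stc2), ENSMUSG00000028370 (Pappa), ENSMUSG00000073530 (Pappa2), ENSMUSG00000039323 (Igfbp2), ENSMUSG00000020427 (Igfbp3), ENSMUSG00000026185 (Igfbp5), ENSMUSG00000023046 (Igfbp6) and ENSMUSG00000036256 (Igfbp7).

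RNA sequencing covered 14 libraries in 6 groups, all labelled with the C57BL/6 background. Wild-type pancreatic β-cells came from neonates at postnatal day 6 (n = 3) and from adults at day 45 (n = 3), and how the cells were purified was not given in the sources used here. Whole islets at 8 weeks carried the label TSC1 KO (n = 2) or control (n = 2), both with the prefix RC. The design text places the knockout in β-cells, and the driver of the deletion was not given in the sources used here. Whole islets at 4 weeks carried the label Db (n = 2) or control (n = 2), both with the prefix BKS, which is the name of another mouse background in db colonies, while the strain field says C57BL/6. The 2 islet tables therefore differ in age and prefix and may differ in preparation. Levels set side by side across tables were normalized separately. No label says that libraries of a group came from different animals, so the p-values reflect the spread between libraries and that spread may be technical.

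IGF1 and IGF2 circulate and act locally bound to IGF-binding proteins, which hold them away from the IGF1 receptor or deliver them to it. Pappalysins are secreted metalloproteases that free the ligand by cutting the binding protein: in human proteins PAPP-A cuts IGFBP4 and IGFBP5, and PAPP-A2 cuts IGFBP3 and IGFBP5. Stanniocalcins are secreted glycoproteins that bind the pappalysins and block them, so the 3 kinds of gene listed here encode inhibitors, their proteases and binding proteins. Of the binding proteins listed here, only IGFBP3 and IGFBP5 are among the substrates just named. IGF ligands act on islet cells as growth and survival factors.

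Among those of the 9 genes that were tested in islets, Stc2 and Pappa2 had the largest differences. These 2 genes rose together in one islet comparison and moved in opposite directions in the other. Their promoters, the 250 bases before the RefSeq start on GRCm38.p6, are shown for that reason, followed by that of Igfbp5, which was called higher in 2 comparisons. Stc2 lies on the minus strand and its window is chr11:31370062-31370311. Pappa2 lies on the minus strand at chr1:158958176-158958425, and Igfbp5 on the minus strand at chr1:72874866-72875115. Capitals mark GCGTG, the core of the hypoxia response element in its less frequent form, and CCAAT, the box bound by NF-Y, on either strand.
Stc2: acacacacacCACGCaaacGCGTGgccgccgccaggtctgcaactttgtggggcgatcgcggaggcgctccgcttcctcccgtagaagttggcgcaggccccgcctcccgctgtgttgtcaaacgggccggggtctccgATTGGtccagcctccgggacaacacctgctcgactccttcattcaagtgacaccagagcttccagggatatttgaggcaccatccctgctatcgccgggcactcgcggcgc
Pappa2: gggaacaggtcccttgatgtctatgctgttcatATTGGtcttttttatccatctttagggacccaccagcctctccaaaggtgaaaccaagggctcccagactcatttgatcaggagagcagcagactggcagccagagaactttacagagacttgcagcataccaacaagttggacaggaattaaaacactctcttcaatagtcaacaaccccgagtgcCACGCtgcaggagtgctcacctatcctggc
Igfbp5: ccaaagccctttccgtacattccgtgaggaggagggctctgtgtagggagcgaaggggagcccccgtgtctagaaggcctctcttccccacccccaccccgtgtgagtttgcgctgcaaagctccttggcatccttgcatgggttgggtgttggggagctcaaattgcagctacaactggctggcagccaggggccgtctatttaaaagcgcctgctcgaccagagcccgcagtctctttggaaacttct
The Stc2 window held GCGTG at 2 places and CCAAT at 1, the Pappa2 window held each at 1, and the Igfbp5 window held neither. GCGTG was present in 28.2% and CCAAT in 33.8% of 32851 promoter windows of the same length, so both are common. None of the 3 windows held TGATGNAAT, a form of the element bound by ATF4 and CHOP (0.816% of windows), the cyclic AMP response element TGACGTCA (1.55%), the E-box CACGTG (6.02%), ACGTG, which also lies inside CACGTG (16.6%), or TATAAA (12.4%). All motifs were searched on both strands, and a match describes letters in the window, not a bound site. RefSeq windows were at hand for 7 of the 9 genes, all but Stc1 and Pappa.

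Levels are given as CPM, the gene's counts after every library was scaled to the same effective size. The libraries held between 3507929 and 17688772 gene counts. The insulin genes took between 1.83% and 7.22% of counts in β-cells, between 24.53% and 27.86% in RC control islets, 1.05% and 0.969% in TSC1 KO islets, and between 45.53% and 70.03% in the BKS table. β-cell markers summed to between 24300 and 33300 CPM in neonatal and between 54700 and 90400 CPM in adult β-cells, while endothelial markers stayed between 6.06 and 33 CPM in both. Markers of other islet endocrine cells summed to between 1170 and 2340 CPM in neonatal β-cells, and 2 of 9 tested were called lower in adults. In adult replicates 1, 2 and 3 they summed to 2190, 424 and 1310 CPM, and their part in the levels of the 9 genes was not tested. Neonatal replicate 3b stood apart with 203 CPM of mesenchymal markers, against at most 44.6 CPM in the other 5 β-cell libraries. TSC1 KO libraries stood apart with 39.77% and 46.83% mitochondrially encoded counts, against 12.36% and 9.05% in their controls. The targeted gene itself did not check the labels: Tsc1 stood at 25.1 and 54 CPM in the RC control libraries and at 30.9 and 34.3 CPM in the TSC1 KO libraries (log2 fold change -0.28 ± 0.38 SE, n = 2, edgeR adjusted p = 0.637). Without RC control replicate 2 it was at 0.37, and without RC control replicate 1 at -0.73 and called (adjusted p = 0.0415). Whole islets also hold cells outside the labelled knockout, and no count here separates the deleted exons. Beyond this, all directions are those of the libraries labelled TSC1 KO.

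In every comparison a gene is called when its adjusted p in edgeR's quasi-likelihood test, after Benjamini-Hochberg adjustment across the whole table, is under 0.05. Of the 9 genes, 6 passed the filter on low counts in the β-cell table, 7 in the TSC1 KO table and 6 in the Db table. In adult against neonatal β-cells 1 was called higher and 0 lower, where 6.98% of all 14304 genes tested were called, 3.38% higher and 3.6% lower. By TSC1 KO against RC control 2 were called higher and 1 lower, where 18.7% of 14515 genes were called, 8.63% higher and 10.1% lower. By Db against BKS control 2 were called higher and 1 lower, where 48.2% of 14369 genes were called, 24.3% higher and 23.9% lower. Among the genes tested, the CPM of the groups did not overlap for 3 of 6 in the β-cell table, where this held for 27.4% of all genes tested, for 6 of 7 in the TSC1 KO table (67.7% of all) and for 6 of 6 in the Db table (74.7% of all). Because the genes were picked with results known, nothing is read from these counts.

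**Figure D1:**
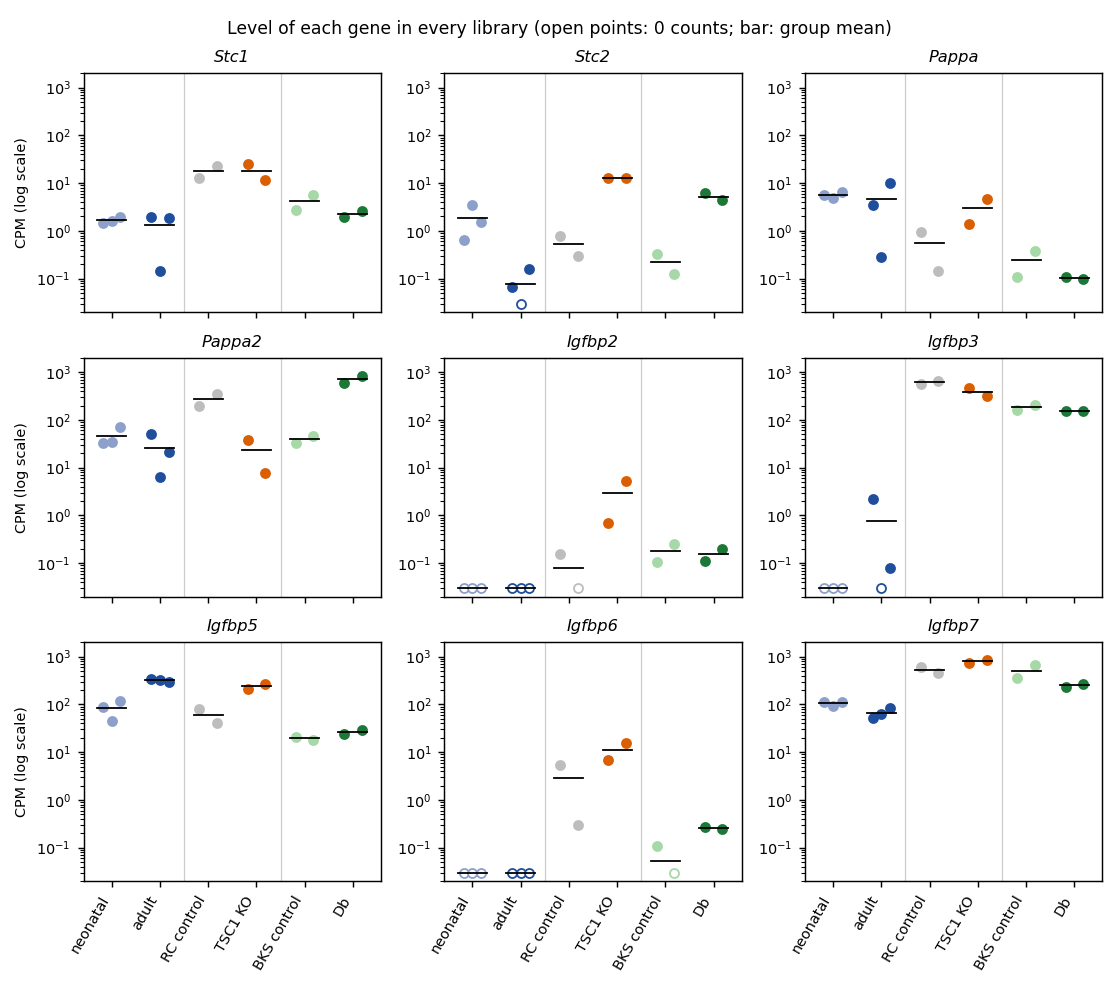
Level of each of the 9 genes in all 14 libraries, in CPM on a log axis, by group. Points are libraries, open points at the foot are libraries with 0 counts, and bars are group means. Stc2 is low in both control islet groups and between 4.41 and 13 CPM in TSC1 KO and Db islets, whereas Pappa2 is at 38.5 and 7.66 CPM in TSC1 KO and at 600 and 822 CPM in Db islets.

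Stc2 encodes the stanniocalcin that blocks PAPP-A covalently. In islets it stood at 0.788 and 0.293 CPM in RC control libraries and at 12.5 and 13 CPM in TSC1 KO libraries. Both knockout libraries lay far above both controls, and Stc2 rose 22.9-fold (log2 fold change 4.52 ± 0.52 SE, n = 2 per group, edgeR adjusted p = 0.0108). In the other islet table it stood at 0.321 and 0.128 CPM in BKS control and at 6.07 and 4.41 CPM in Db libraries. Again both Db libraries exceeded both controls, and Stc2 rose 21.7-fold (4.44 ± 0.54, edgeR adjusted p = 1.85e-07).

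The controls carried few Stc2 reads, 5 and 2 in RC control against 54 and 39 in TSC1 KO, and 3 and 1 in BKS control against 110 and 91 in Db. The ratio of pooled levels was 23.9 with a 95% counting interval from 11.2 to 61.2 for TSC1 KO, and 22.2 with an interval from 8.55 to 82.4 for Db. These intervals come from counts pooled over the libraries of a group, so they cover counting error only and not the spread between libraries. Reads were counted without molecular identifiers, so the counting error itself may be understated. The Stc2 difference in the TSC1 KO table minus that in the Db table was 0.01 on the log2 scale (edgeR interaction, adjusted p = 1), and limma-voom put it at 0.20 ± 1.01 (SE). That error leaves room for several-fold differences between the 2 responses in either direction. Without TSC1 KO replicate 1 or 2 the rise in that table was as large, 4.54 and 4.50, with adjusted p of 0.0901 and 0.148, when no gene of the table was called.

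In β-cells Stc2 ran the other way with age. It stood at 0.649, 3.49 and 1.52 CPM in neonatal libraries and at 0.0668, 0 and 0.16 CPM in adult libraries. Every neonatal library exceeded every adult one, from 10, 52 and 25 counts against 1, 0 and 2. The pooled ratio was 25.8, with a counting interval from 8.53 to 127 that leaves out the spread between libraries. The spread between the neonatal libraries was wide, and the difference was not called (-4.52 ± 2.06 SE, n = 3, edgeR adjusted p = 0.223).

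Stc1 encodes the paralogous stanniocalcin. It was at 1.43, 1.61 and 1.94 CPM in neonatal and at 1.94, 0.142 and 1.84 CPM in adult β-cells, where the groups overlapped (-0.35 ± 1.53, edgeR adjusted p = 0.939). In RC control islets it stood at 12.9 and 23.3 CPM, overlapping with the 24.8 and 11.7 CPM of TSC1 KO islets (0.03 ± 0.45, edgeR adjusted p = 0.971). In Db islets Stc1 was at 1.99 and 2.57 CPM, below both BKS controls at 2.78 and 5.64 CPM, and the difference narrowly missed the call (-0.86 ± 0.37, edgeR adjusted p = 0.0524). BKS control replicate 2 carried most of this difference: it was -0.25 without that library (edgeR adjusted p = 0.661), and it was -1.27 and called without BKS control replicate 1 (adjusted p = 0.00386). With library size as the only scaling it was -0.50 (adjusted p = 0.336).

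Pappa2 encodes the pappalysin that cuts IGFBP3 and IGFBP5. It stood at 32.2 and 46.9 CPM in BKS control islets and at 600 and 822 CPM in Db islets. The Db libraries shared no range with their controls, and Pappa2 rose 18-fold (4.17 ± 0.26 SE, n = 2, edgeR adjusted p = 1.31e-12), rank 8 of all genes in that table by p. In the TSC1 KO table it went the other way, with 195 and 357 CPM in RC control and 38.5 and 7.66 CPM in TSC1 KO islets. Both knockout libraries lay below both controls but were themselves far apart, and Pappa2 fell 11.7-fold (-3.55 ± 0.80, edgeR adjusted p = 0.0429).

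The fall in TSC1 KO islets was close to the threshold. It was not called without a filter on low counts (edgeR adjusted p = 0.191), with the replicate number as a block (0.105), or without any one of the 4 libraries (0.0854 without RC control replicate 1, 0.153 without RC control replicate 2, 0.0892 without TSC1 KO replicate 1 and 0.153 without TSC1 KO replicate 2). It kept its sign throughout, between -5.18 and -2.84. In the same libraries β-cell markers summed to between 12800 and 13300 CPM in TSC1 KO against between 234000 and 264000 in RC control, with 8 of 9 lower, and the part of that shift in the Pappa2 values was not tested. Fewer cells of a type and less RNA per cell cannot be told apart in bulk islets. In Db islets β-cell markers were also lower, at 427000 to 494000 against 599000 to 919000 CPM in controls. Of 9, 6 were called lower and 1 higher, and their part in the Pappa2 values of that table was not tested either.

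The 2 responses of Pappa2 differed in the joint fit over the 8 islet libraries, by -7.79 ± 1.02 on the log2 scale (TSC1 KO minus Db, SE; edgeR interaction, adjusted p = 0.0024), in a test that called 31.8% of 15702 genes. The difference was called in all 14 alternatives tried, with adjusted p up to 0.0159. The genetic model, the age and the table cannot be told apart in it. The control levels differed too, since RC control libraries held 195 and 357 CPM and BKS control libraries 32.2 and 46.9 CPM. In β-cells Pappa2 was at 33.3, 35.1 and 71.7 CPM in neonates and at 50.1, 6.41 and 21.2 CPM in adults, where the groups overlapped and the adult libraries were widely spread (-0.85 ± 0.67, n = 3, edgeR adjusted p = 0.564). Single libraries moved this value, to -1.76 without adult replicate 1 (adjusted p = 0.0946), -0.38 without adult replicate 2 and -0.40 without neonatal replicate 3b, none of them called.

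In the annotation the span of Pappa2 overlaps that of the long noncoding gene 1600012P17Rik on the same strand. Whether their exons overlap was not examined, and reads in a shared exon could not be told apart. That gene had 88 and 126 counts in Db libraries and 2 and 3 in their controls, and 173 counts in neonatal replicate 3b against at most 13 in the other 5 β-cell libraries. It had 3 and 24 counts in RC control replicates 1 and 2, and 3 and 1 in TSC1 KO replicates 1 and 2.

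**Figure D2:**
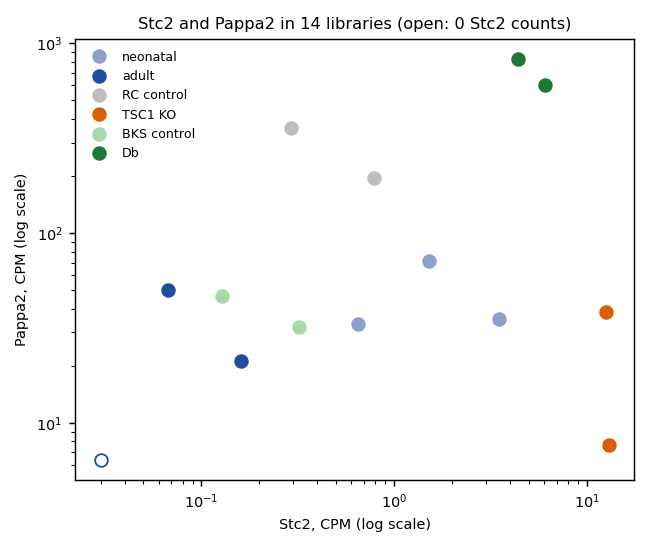
Stc2 (x axis) against Pappa2 (y axis) in the 14 libraries, both in CPM on log axes, coloured by group; the open point has 0 Stc2 counts. Db libraries sit at the upper right, with 600 and 822 CPM of Pappa2, and TSC1 KO libraries at the lower right, with 38.5 and 7.66 CPM, although both hold more Stc2 than every control islet library.

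Pappa encodes PAPP-A, the protease of IGFBP4 and IGFBP5. It was low in all groups. In β-cells it stood at 5.71, 4.9 and 6.38 CPM in neonates and at 3.47, 0.285 and 10.1 CPM in adults (-0.29 ± 0.96, edgeR adjusted p = 0.914), with adult replicate 2 far below the rest. In both islet tables it was under the filter on low counts and was not tested alone, at 0.945 and 0.147 CPM in RC control, 1.39 and 4.67 CPM in TSC1 KO, 0.107 and 0.385 CPM in BKS control and 0.11 and 0.0968 CPM in Db. The knockout libraries lay above their controls and the Db libraries overlapped with theirs. It passed the filter of the joint islet fit, where the difference between the responses was 3.43 ± 1.66 and not called (TSC1 KO minus Db, SE; edgeR interaction, adjusted p = 0.131), although it was called without RC control replicate 1 (5.06, adjusted p = 0.05).

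Igfbp5 encodes a binding protein that both pappalysins cut. In β-cells it stood at 88.9, 45.6 and 119 CPM in neonates and at 336, 320 and 300 CPM in adults. The adult libraries were close together and all above the neonatal ones, and Igfbp5 rose 3.77-fold (1.91 ± 0.28 SE, n = 3, edgeR adjusted p = 0.00136), the one gene of the 9 called in β-cells. That call was kept in all 12 alternatives, with adjusted p up to 0.0137. Other marker sums also moved with age: Schwann and neural markers went from between 9.33 and 31.3 CPM to between 50.8 and 61.1 CPM, with 1 of 3 tested called higher, and duct markers from between 633 and 708 CPM to between 460 and 505 CPM, with 3 of 7 called lower. Their part in the Igfbp5 level was not tested.

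In islets Igfbp5 stood at 81.3 and 40.8 CPM in RC control and at 210 and 271 CPM in TSC1 KO. Both knockout libraries exceeded both controls, and Igfbp5 rose 3.94-fold (1.98 ± 0.39, n = 2, edgeR adjusted p = 0.0244). Without TSC1 KO replicate 1 or 2 the adjusted p was 0.118 and 0.184. In the Db table it stood at 21 and 18.1 CPM in BKS control and at 24.6 and 28.6 CPM in Db, higher in both libraries by a small amount that was not called (0.44 ± 0.21, edgeR adjusted p = 0.0874). It was called there without a filter on low counts (edgeR adjusted p = 0.0452) and without BKS control replicate 1 (0.0466). The difference between the islet responses was 1.45 ± 0.41 (edgeR interaction, adjusted p = 0.0199), not called with library size as the only scaling (0.97, adjusted p = 0.137) or without any of 5 single libraries, TSC1 KO replicate 2 and each BKS control and Db library, where adjusted p ran from 0.0521 to 0.0862.

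Other cell types moved with the islet comparison. Markers of other islet endocrine cells summed to between 27000 and 32800 CPM in RC control and to between 2910 and 7500 CPM in TSC1 KO, with 6 of 9 tested called lower and 1 higher. In TSC1 KO islets 4 of 10 endothelial markers were called higher and their sum went from between 2600 and 2830 CPM to between 4140 and 5540 CPM. Mesenchymal markers summed to between 982 and 1340 CPM in RC control and to between 1400 and 5390 CPM in TSC1 KO, with 0 of 10 called. Duct markers went from between 331 and 972 CPM to between 2140 and 2920 CPM, with 2 of 7 called higher, and stomach mucosa markers from between 10.8 and 19.7 CPM to between 190 and 319 CPM, with 4 of 4 tested called higher and Gkn1, Gkn2, Tff1 and Muc5ac at 0 in all 4 libraries. Acinar markers overlapped, at 1310 to 2050 CPM and 761 to 2110 CPM. The part of these cells in the levels of Stc2, Igfbp5 and the other genes was not tested.

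Igfbp7 encodes a secreted relative of the IGF-binding proteins with low affinity for IGFs, abundant in vessel walls. Its counts are uncertain. In the annotation its end overlaps that of Polr2b, an RNA polymerase II subunit gene on the opposite strand, and the strand setting of the counting is not known here, so reads of this pair may not be told apart. Polr2b had between 0 and 13 counts in each of the 14 libraries, while Polr2a, another subunit of the same polymerase, had between 360 and 5416.

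Within that limit, Igfbp7 stood at 112, 92.1 and 113 CPM in neonatal and at 51.4, 63.2 and 83.7 CPM in adult β-cells. All adult libraries were lower, and the difference was not called (-0.68 ± 0.22, n = 3, edgeR adjusted p = 0.0812), but it was with library size as the only scaling (adjusted p = 0.034), with DESeq2 (0.0428), without a filter on low counts (0.0462) and without neonatal replicate 3a (0.0262). In islets it stood at 620 and 446 CPM in RC control and at 754 and 845 CPM in TSC1 KO, higher in both but not called (0.59 ± 0.34, edgeR adjusted p = 0.261). In BKS control islets it was at 350 and 665 CPM and in Db islets at 236 and 273 CPM, below both controls, and it fell 1.99-fold (-0.99 ± 0.25, n = 2, edgeR adjusted p = 0.00254).

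The fall of Igfbp7 in Db islets was not called with library size as the only scaling (-0.61, edgeR adjusted p = 0.18) or without BKS control replicate 2 (-0.43, adjusted p = 0.0698), the control library with the higher level. Marker sums of other cell types differed too, in a table where 48.2% of all genes tested were called. Endothelial markers went from between 879 and 945 CPM to between 651 and 654 CPM, with 5 of 10 called lower and 2 higher. Mesenchymal markers were at 311 to 418 CPM in controls and 577 to 615 CPM in Db, with 5 of 9 tested called higher and 1 lower. Acinar markers rose from between 9.84 and 10.8 CPM to between 94.2 and 218 CPM, with 3 of 5 called. Duct markers summed to between 362 and 372 CPM in controls and between 807 and 851 CPM in Db, with 2 of 6 tested called higher and 2 lower. The part of these cells in the Igfbp7 level was not tested.

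Igfbp3 encodes the main IGF carrier of serum and a substrate of PAPP-A2. It was abundant in every islet library and nearly absent from β-cells, with 0 counts in all 3 neonatal libraries and 33, 0 and 1 counts in the adult ones. The floor that 3 counts set in the β-cell libraries lay between 0.182 and 0.24 CPM. In islets Igfbp3 stood at 574 and 661 CPM in RC control and 460 and 317 CPM in TSC1 KO, lower in both knockout libraries but not called (-0.67 ± 0.33, edgeR adjusted p = 0.201). It stood at 165 and 203 CPM in BKS control and at 151 in both Db libraries, below both controls and not called (-0.28 ± 0.20, edgeR adjusted p = 0.254), a sign that turned with library size as the only scaling (0.05, adjusted p = 0.926). Neither islet comparison called Igfbp3, and RNA levels do not show whether the IGFBP3 protein was cut.

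Igfbp6, which encodes a binding protein with a preference for IGF2, had 0 counts in all 6 β-cell libraries. It stood at 5.52 and 0.293 CPM in RC control and at 6.73 and 15.7 CPM in TSC1 KO islets, higher in both knockout libraries but not called (1.93 ± 1.11, edgeR adjusted p = 0.273). RC control replicate 1 decided this value: without it the difference was 5.10 and called (adjusted p = 0.00801). In the Db table it had 1 and 0 counts in controls and 5 and 5 in Db libraries and was not tested. Igfbp2, the binding protein gene that lies beside Igfbp5 on chromosome 1, also had 0 counts in the 6 β-cell libraries. It had 1 and 0 counts in RC control, 3 and 16 in TSC1 KO, 1 and 2 in BKS control and 2 and 4 in Db libraries, and was under the filter in both tables. With no filter it was called higher in TSC1 KO (4.81 ± 1.37, edgeR adjusted p = 0.0278), on the 16 counts of 1 library and 3 of the other. Its neighbour Igfbp5 was detected in every library.

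**Figure D3:**
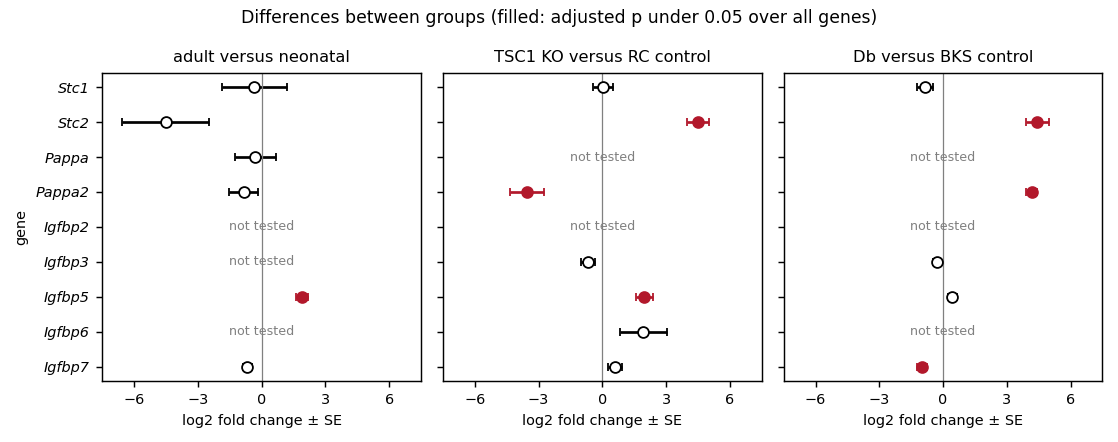
Log2 fold change ± SE of the 9 genes in each comparison (positive: higher in adult, TSC1 KO or Db), from edgeR. Filled points have an adjusted p under 0.05 over all genes of the table. Stc2 lies at 4.52 and 4.44 in the 2 islet comparisons, while Pappa2 lies at -3.55 in one and 4.17 in the other.

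Levels of different genes were compared per length, as CPM per kb of exon. The counts of Igfbp7 are uncertain, as said above, so its rank and every share of a summed level, here and in islets, carry that limit. In neonatal β-cells the order was Igfbp7 (87.4 ± 9.77 CPM per kb, SD, n = 3), Igfbp5 (14.1 ± 6.17), Pappa2 (4.54 ± 2.10), Pappa (0.514 ± 0.0671), Stc1 (0.396 ± 0.0623) and Stc2 (0.364 ± 0.281), and the ranges of the last 3 overlapped. In adult β-cells Igfbp7 (54.7 ± 13.5) and Igfbp5 (53 ± 2.97) were alike within their spread, ahead of Pappa2 (2.52 ± 2.16), Pappa (0.42 ± 0.456), Stc1 (0.311 ± 0.24) and Igfbp3 (0.243 ± 0.399), whose neighbours in this order overlapped. Of the summed CPM per kb of the 9 genes, Igfbp7 made up between 76.8% and 85.9% in neonates and between 40.6% and 56.4% in adults, and Igfbp5 between 8.56% and 16.3% and then between 40.7% and 53.3%. The sums themselves were close, at 88.7 to 122 CPM per kb in neonates and 105 to 123 in adults.

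In all 4 islet groups Igfbp7 led. In RC control it was followed by Igfbp3 (197 ± 19.8 CPM per kb, SD, n = 2), Pappa2 (26.8 ± 11.1), Igfbp5 (10.2 ± 4.77) and Stc1 (4.32 ± 1.75). In TSC1 KO the order after Igfbp7 (661 ± 52.9) was Igfbp3 (124 ± 32.4), Igfbp5 (40 ± 7.25), Igfbp6 (10.1 ± 5.68), Stc1 (4.35 ± 2.22), Stc2 (2.47 ± 0.0622) and Pappa2 (2.24 ± 2.12), the last 2 alike within their spread. In BKS control Pappa2 (3.84 ± 1.01) and Igfbp5 (3.25 ± 0.34) were also alike within their spread, far below Igfbp3 (58.7 ± 8.61). In Db islets Pappa2 (69 ± 15.2) stood above Igfbp3 (48.3 ± 0.109), and its share of the summed level of the 9 genes was 18.9% and 22.1%, against 0.895% and 0.73% in the controls.

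**Figure D4:**
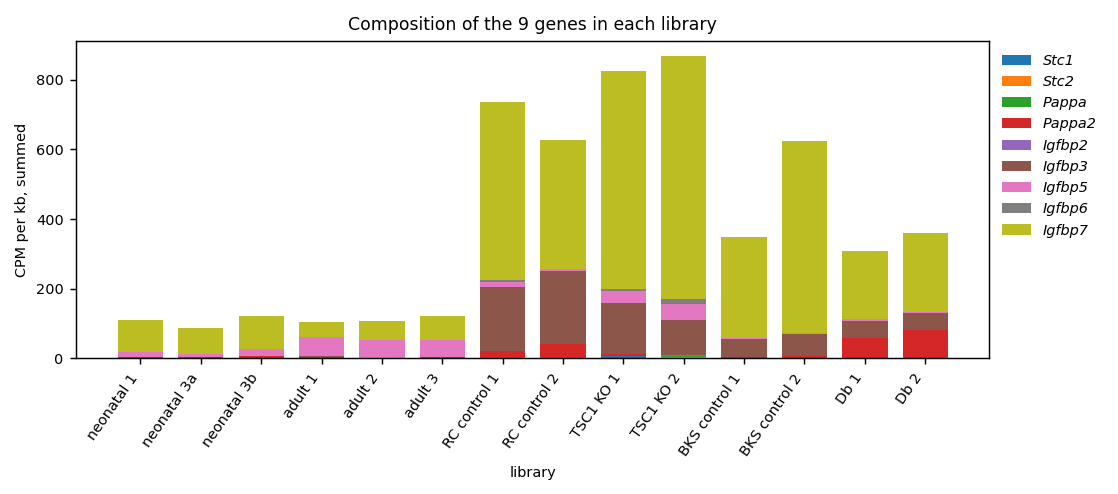
Summed level of the 9 genes in each of the 14 libraries, in CPM per kb of exon, stacked by gene. The counts of Igfbp7, which are part of every sum, are uncertain. The Igfbp5 part grows from neonatal to adult β-cells, between 40.7% and 53.3% of the adult sums, and the Pappa2 part grows from BKS control to Db islets, to 18.9% and 22.1%.

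The genes around them were read from 4 lists, 38 genes in all: ligands and receptors, other binding proteins and carriers, other proteases and partners, and signalling adaptors with the Igf2 mRNA binders. Their median log2 fold change in adult against neonatal β-cells was -0.49, where that of all genes tested was -0.03. Of 26 tested, 2 were called higher and 9 lower, where 6.98% of all genes tested were called, 3.38% higher and 3.6% lower. The lists were drawn up with results known, so nothing is read from such counts here or in the islet comparisons. All 3 Igf2 mRNA binders fell. Igf2bp1 went from 16.5 to 0.249 CPM (-6.03 ± 0.79 SE, edgeR adjusted p = 0.000198), Igf2bp2 from 103 to 16.4 CPM (-2.66 ± 0.29, edgeR adjusted p = 3.49e-05) and Igf2bp3 from 45.4 to 0.976 CPM (-5.55 ± 0.52, edgeR adjusted p = 1.02e-05).

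Among the ligands and receptors in β-cells, Igf1r, the receptor through which both ligands signal, fell from 281 ± 81.7 to 135 ± 5.68 CPM (SD, n = 3; -1.06 ± 0.20 SE, edgeR adjusted p = 0.00428). Igf2 fell from 17.9 ± 18.3 to 2.41 ± 1.44 CPM (-2.89 ± 0.82, edgeR adjusted p = 0.0489), from 202, 38 and 627 counts in neonatal and 25, 21 and 51 in adult libraries. The highest of these came from neonatal replicate 3b, and the groups overlapped. Its adjusted p was above 0.05 in 6 of 12 alternatives. Grb10, an imprinted adaptor that restrains these receptors, fell from 204 to 51.5 CPM (-1.99 ± 0.22, edgeR adjusted p = 4.07e-05). Irs1 (-1.11), Foxo1 (-0.76) and the protease gene Mmp14 (-3.99) also fell. Igfals, which encodes the acid-labile subunit of the serum IGF complex, rose 2-fold (1.00 ± 0.25, edgeR adjusted p = 0.0215), and the lysosomal protease gene Ctsd rose 1.84-fold (0.88 ± 0.19, edgeR adjusted p = 0.0117). Igf2r (0.14), Insr (0.25) and Igfbp4 (-0.25) were not called, Igf1 had 0, 0 and 1 neonatal and 27, 1 and 16 adult counts and was not tested, and Igfbp1, beside Igfbp3 on chromosome 11, had 0 counts in all 14 libraries. Of the 11 calls, 4 were kept in every alternative tried (Igf1r, Grb10, Igf2bp2 and Igf2bp3).

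In TSC1 KO against RC control islets the median of the lists was 0.25, against 0 for all genes tested. Of 31 tested, 5 were called higher and 3 lower, where 18.7% of all genes tested were called, 8.63% higher and 10.1% lower. The ligand gene Igf1 rose from 3.47 ± 2.22 to 40.2 ± 20.4 CPM (SD, n = 2; 3.52 ± 0.59 SE, edgeR adjusted p = 0.0214). The protease genes Htra3 (1.63 ± 0.42), Mmp14 (2.42 ± 0.58) and Prss23 (1.85 ± 0.26) and the transcription factor gene Foxo1 (0.77 ± 0.20) rose, with edgeR adjusted p between 0.0133 and 0.0486. Insrr, the insulin receptor-related receptor of β-cells, fell from 695 to 39.7 CPM (-4.12 ± 0.57, edgeR adjusted p = 0.0134), as did Igfals (-2.90 ± 0.37, edgeR adjusted p = 0.0117) and Esm1 (-1.87 ± 0.30, edgeR adjusted p = 0.0163), which encodes the proteoglycan endocan. Igf2 (2.40, edgeR adjusted p = 0.0922), Igfbp4 (2.15, 0.102), Igf2r (0.88, 0.092), Igf1r (0.45, 0.394) and Insr (-0.03, 0.95) were not called. All 8 calls were lost without at least 1 TSC1 KO library, as every call of that table was.

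In Db against BKS control islets the median was 0.25, against -0.03 for all genes tested. Of 28 tested, 11 were called higher and 5 lower, where 48.2% of all genes tested were called, 24.3% higher and 23.9% lower. The receptor genes Igf1r (0.99 ± 0.26 SE, n = 2, edgeR adjusted p = 0.00284) and Igf2r (1.44 ± 0.21, edgeR adjusted p = 2.45e-06) rose, and Insrr fell (-1.51 ± 0.24, edgeR adjusted p = 1.79e-05). Irs2, the adaptor that carries insulin and IGF1 receptor signals in β-cells, rose 4.93-fold, from 18.7 to 92.1 CPM (2.30 ± 0.23, edgeR adjusted p = 8.39e-09). Igfbp4, which encodes the main substrate of PAPP-A, rose 1.65-fold (0.72 ± 0.21, edgeR adjusted p = 0.00634).

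Among proteases and partners in Db islets, Ctsd (1.66) and Lrp1 (1.51), a receptor that takes up IGFBP3, rose together with Prss23 (0.95) and Tmem219 (0.60), which encodes a death receptor for IGFBP3. Htra1 (-1.24) and Adamts1 (-0.95), both genes of secreted proteases, fell. Kazald1 (0.82), Grb14 (0.58) and Akt1 (0.69) rose, and Esm1 (-0.90) and Igf2bp2 (-1.97) fell. Igf2 (0.42, edgeR adjusted p = 0.273) and Insr (-0.27, 0.313) were not called, and Igf1 had 11 and 7 counts in controls and 6 and 12 in Db libraries and was not tested. Of the 16 calls, 8 were kept in every alternative tried (Igf1r, Igf2r, Insrr, Igf2bp2, Ctsd, Lrp1, Irs2 and Akt1).

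**Figure D5:**
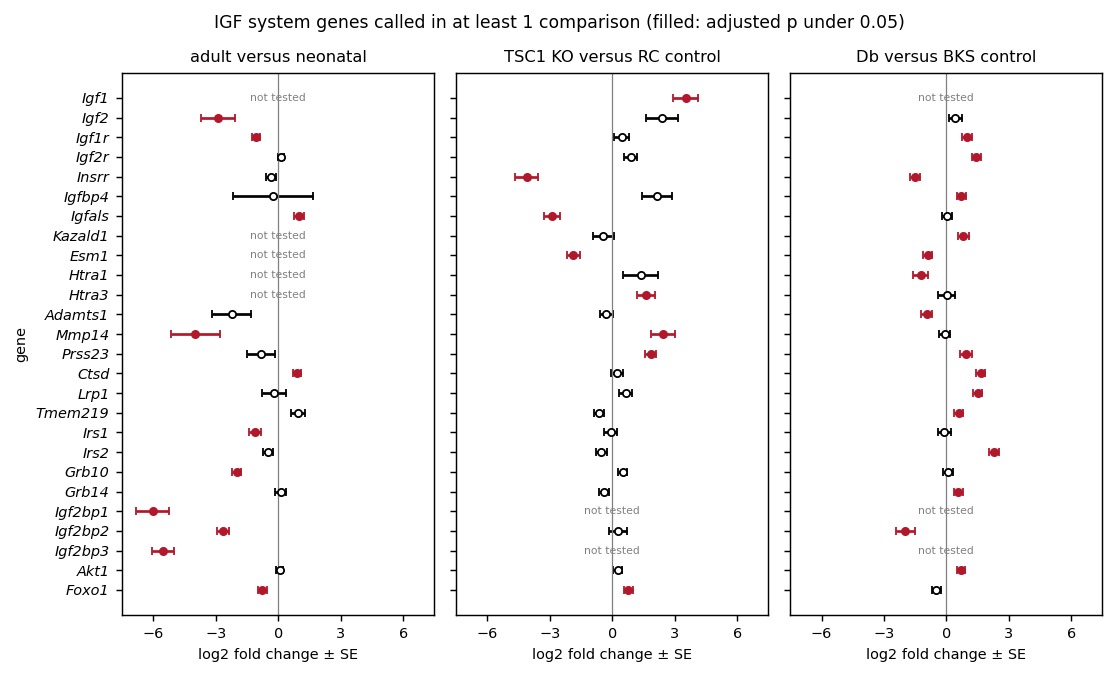
Log2 fold change ± SE, from edgeR, of the 26 listed IGF system genes called in at least 1 comparison, by comparison (positive: higher in adult, TSC1 KO or Db). Filled points have an adjusted p under 0.05 over all genes. The Igf2bp genes lie far to the left in adult β-cells, at -6.03, -2.66 and -5.55, and Insrr lies to the left in both islet comparisons, at -4.12 and -1.51.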

How the data were processed

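RNA-seq libraries of β-cells and islets were analysed from the raw counts deposited by the authors, whole reads per Ensembl gene in 3 tables. The submitters' processing notes name the tools HTSeq 0.7.1, GSNAP, cutadapt 1.13 and DESeq2 1.16.0 and the builds NCBIM37 and mm9, with no roles given. The strand setting was not given in the sources used here, although per the labels' protocols the SMARTer kit marks the strand, so genes overlapping an antisense partner are uncertain. Rows naming no gene were left out of library sizes. Gene rows held between 24.52% and 44.27% of reads in the 2 tables that list the rest. Of the neonatal columns 2 carry the same heading, with number 3. They were used as replicates 3a and 3b of the group. No pair of replicates looked like 1 library deposited again (chi-square per degree of freedom from 10.03 to 81.32).

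Each table was fitted alone, over all its genes, with the two-sided quasi-likelihood test of edgeR 4.0.16 (R 4.3.3) after filterByExpr (minimum count 10, minimum total 15) and TMM, with robust dispersions, Benjamini-Hochberg adjustment and a threshold of 0.05. A joint fit of the 8 islet libraries tested the difference between responses. SEs were derived from the fold change and its F statistic. CPM used the TMM-effective library, and CPM per kb the exon length in a later annotation (GENCODE M21). Symbols matched 32620 of 37310 identifiers (87.4%). Alternatives were library size alone, RLE factors, removal of mitochondrial and insulin genes, DESeq2 1.42.0, limma-voom 3.58.1, no filter, each library left out, and a replicate block. The fit was also run on counts simulated from its own model. Such a run cannot show errors that arise where the model is wrong, and nothing is read from it here. The 9 genes, the lists and the alternatives were chosen with earlier results of these data known. All 9 genes are named, with every listed gene called, and Igf1, Igf2, Igf1r, Igf2r, Insr, Igfbp1 and Igfbp4 in any case.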

Additional observations from a re-analysis of the deposited data

Results flagged for a closer look

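Among the 9 genes, 3 had responses that differed between the islet models by a test of the difference itself. That test called 31.8% of all 15702 genes tested and did not include Igfbp2, so nothing is read from the count of 3. Pappa2 differed by -7.79 on the log2 scale (TSC1 KO minus Db, edgeR interaction, adjusted p = 0.0024), where it fell by 3.55 in the TSC1 KO table and rose by 4.17 in the Db table, and the groups of neither table overlapped. Igfbp5 differed by 1.45 (edgeR interaction, adjusted p = 0.0199), rising by 1.98 in TSC1 KO and standing at 0.44 in Db. The Igfbp5 difference was not called in 6 of 14 alternatives, among them library size as the only scaling (0.97, edgeR adjusted p = 0.137). Igfbp7 differed by 1.5 (edgeR interaction, adjusted p = 0.0216), at 0.59 in TSC1 KO and -0.99 in Db, with counts that its antisense neighbour makes uncertain. The Igfbp7 difference was not called with library size as the only scaling (0.94, adjusted p = 0.167), or without TSC1 KO replicate 2 (0.0646), BKS control replicate 2 (0.104), Db replicate 1 (0.107) or Db replicate 2 (0.0798). Genetic model, age and table cannot be told apart in these differences. With groups of 2 and 3 libraries no single library was examined as an outlier.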

How the results depend on the processing

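Leaving out 1 library mattered most. Of all genes, it left between 405 and 1380 called in β-cells (999 with all libraries), between 0 and 4015 in TSC1 KO (2712), between 4419 and 6666 in Db (6919) and between 2912 and 5911 for the difference between islet responses (4988). The count of 0 arose without TSC1 KO replicate 1 or 2 in edgeR, with 3535 and 3061 genes at an unadjusted p under 0.05. DESeq2 then called 823 and 550 genes, 3 and 2 of them among the 9, and limma-voom 0 and 0, with 3061 and 2952 unadjusted. Of the 9 genes, between 1 and 2, 0 and 3, 2 and 5, and 1 and 4 were called, and of the 38 listed genes between 5 and 11 in β-cells and between 0 and 11 in TSC1 KO. DESeq2 called 1575 genes in β-cells. In β-cells 2 of the 9 genes were called with library size as the only scaling, with DESeq2 and without a filter, and limma-voom called 6 listed genes. For the difference between islet responses, library size alone left 1 of the 9.

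Scaling by library size alone moved the median of all genes to -0.19 in β-cells, -0.25 in TSC1 KO, 0.29 in Db and -0.47 for the difference, and the split of higher against lower calls became 321 to 866 (484 to 515 with TMM), 762 to 1961 (1252 to 1460), 3997 to 1564 (3488 to 3431) and 868 to 3809 (2066 to 2922). Signs that turned were all of values not called. They were Igf2r (-0.02) in β-cells, Igfbp3 (0.05) and Insr (0.05) in Db, Stc1 (-0.19) in TSC1 KO and Stc2 (-0.41) for the difference. Without a filter Stc1 in TSC1 KO was -0.01 and the Stc2 difference -0.10. With limma-voom Igfbp4 in β-cells was 1.47 and the Igfbp6 difference 1.26. With 1 library left out, values that turned in at least 1 such fit ran from -0.92 to 4.87 for Igfbp4, -1.58 to 0.27 for Pappa and -0.75 to 0.19 for Stc1 in β-cells, from -0.38 to 0.23 for Insr, -0.65 to 0.53 for Stc1 and -0.73 to 0.37 for Tsc1 in TSC1 KO, and from -2.85 to 2.98 for the Igfbp6 and -0.80 to 0.74 for the Stc2 difference. The cause was not tested.

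The replicate number as a block left 1678 genes called in TSC1 KO and 5 listed genes. Among the 9 it changed only the Pappa2 call in TSC1 KO (adjusted p = 0.105). Same-numbered deviations correlated at -0.05 across genes in TSC1 KO and -0.04 in Db. With 2 libraries per group this cannot tell whether same-numbered samples shared more than a number. No paired analysis was possible because 2 neonatal columns carry 1 number, for the β-cell table. Depth limits Stc2 in controls, and Igfbp2, Igfbp6 and Pappa in islets.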

Other observations

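The genes whose log2 CPM, centred within each table, most resembled that of a member were found over the 14 libraries among 12158 genes tested in all 3 tables. These correlations are descriptions: the libraries share tables, depth and cell make-up, and every gene that moves with the same groups correlates. For Stc2 they were Osbpl3 (Pearson r = 0.96), Lasp1 (0.95) and Farp1 (0.95). For Pappa2 they were Zswim1 (0.95), Hap1 (0.94) and 1810021B22Rik (0.93). For Igfbp5 they were Mctp1 (0.97), Tgfb3 (0.94) and Fam149a (0.93). For Igfbp7 they were Atf1 (0.90), Junb (0.89) and Hells (0.89), and for Stc1 ENSMUSG00000086351 (0.92), Zcchc8 (0.88) and Nudt2 (0.88). Between members r was 0.15 for Stc2 with Pappa2 and -0.43 for Pappa2 with Igfbp5.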
